A study of Mus musculus with 8 samples.

Results

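The genes described here are Prox1, Lyve1, Flt4, Pdpn, Vegfc and Reln, which mark the endothelium of lymphatic vessels or control its growth, measured in myocardial tissue of mice after coronary occlusion and reperfusion. They were chosen as known lymphatic genes of which Prox1 had been seen lower, and Lyve1 tended higher, in DJ-1 hearts of the same arrays, and each was taken from its only probe set annotated with that single symbol. All 6 were found among the 19938 genes measured. The mice were males of a strain named CH3 in the labels. They were 8 to 10 weeks old and weighed between 25 and 30 g. In the DJ-1 group, 4 mice received recombinant DJ-1 protein 1 hour before ligation. In the placebo group, 4 mice received phosphate-buffered saline at the same time. All 8 mice then had the left anterior descending coronary artery closed for 45 minutes and reopened for 2 hours, so every heart was injured and no uninjured heart was compared. DJ-1, encoded by Park7, is a small redox-sensitive protein that protects cells from oxidative stress. Total RNA was hybridised to Affymetrix whole-transcript arrays, and the deposited values are log2 expression levels from RMA, a robust averaging of the probes of each probe set over normalized arrays.

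Lymphatic vessels of the heart drain fluid and immune cells from the myocardium. Vegfc encodes the secreted growth factor VEGF-C, which binds the receptor VEGFR-3 encoded by Flt4 and drives the growth of lymphatic vessels, and the homeobox transcription factor Prox1 sets and keeps the identity of lymphatic endothelial cells. None of these genes belongs to the lymphatic endothelium alone: Prox1 is also transcribed in cardiomyocytes, Lyve1 in resident macrophages of the heart, and Pdpn in mesothelial cells, in fibroblasts and in lung alveolar epithelium.

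The arrays were alike in distribution, with medians from 5.28 to 5.35 in DJ-1 hearts and 5.25 to 5.29 in placebo hearts. DJ-1 replicates 3 and 4 stood apart on the first principal component, which held 26.3% of the variance. Their scores were 19.6 and 23.5, while the other 6 arrays scored from -15.0 to 5.31. Within the placebo group, replicates 3 and 4 also scored above replicates 1 and 2, at 5.31 and -0.24 against -7.34 and -15.0. Sample codes in the labels are consecutive within each group, and any order of handling that these codes reflect cannot be told apart from the treatment. The 95th percentile of the mean levels of olfactory receptor genes, 4.74, was taken as a guide to the background, since these genes are barely active in muscle. All 6 lymphatic genes had means above it. All 12 cardiomyocyte markers also lay above it, whereas 4 of 8 lung alveolar markers did not (Sftpc, Sftpa1, Rtkn2 and Scgb1a1). In tissue RNA, fewer cells of a type and less RNA per cell cannot be told apart.

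Prox1 had log2 levels of 7.59, 7.72, 7.62 and 7.60 in DJ-1 replicates 1 to 4, against 8.15, 7.89, 7.98 and 8.60 in placebo replicates 1 to 4. All DJ-1 hearts lay below all placebo hearts, the DJ-1 hearts were close to one another, and the placebo hearts were spread widely with replicate 4 on top. The mean was 7.63 ± 0.06 in DJ-1 hearts and 8.16 ± 0.32 in placebo hearts (SD, n = 4 each), a difference of -0.52 (SE 0.14), or 0.696 times the placebo level. This contrast was among the values that chose the gene, so the difference is a description and carries no test. Leaving out placebo replicate 4 gave -0.37, and leaving out placebo replicate 2 gave -0.61, the ends of the range over single arrays left out. The gene lies on chromosome 1 from 190118035 to 190170827 (GRCm38.p6).

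Reln encodes reelin, a large secreted glycoprotein that lymphatic endothelium releases and that supports cardiomyocyte survival in the mouse heart. Its levels were 6.34, 6.37, 6.12 and 6.30 in DJ-1 replicates 1 to 4, against 6.51, 6.42, 6.39 and 6.52 in placebo replicates 1 to 4. The DJ-1 hearts were again all below the placebo hearts, but the gap between the groups was only 0.02, where that of Prox1 was 0.17. The means were 6.28 ± 0.11 in DJ-1 hearts and 6.46 ± 0.07 in placebo hearts (SD, n = 4 each), a difference of -0.18 (SE 0.09). Prox1 and Reln were thus the 2 of 6 genes whose groups did not overlap, both lower in DJ-1 hearts. Over all 19938 genes, 1.68% had non-overlapping groups with DJ-1 lower and 1.54% with DJ-1 higher. Nothing is read from that comparison, since the contrast was used to choose the genes.

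The stretches of 250 bases just upstream of the annotated starts of these 2 genes are shown because theirs were the groups that did not overlap (RefSeq, GRCm38.p6, 5′ to 3′ on the strand of the gene). The Prox1 stretch is chr1:190170828-190171077 and the Reln stretch chr5:22344706-22344955, both on the minus strand. Capitals mark any of the 5 short motifs searched for on both strands.
Prox1: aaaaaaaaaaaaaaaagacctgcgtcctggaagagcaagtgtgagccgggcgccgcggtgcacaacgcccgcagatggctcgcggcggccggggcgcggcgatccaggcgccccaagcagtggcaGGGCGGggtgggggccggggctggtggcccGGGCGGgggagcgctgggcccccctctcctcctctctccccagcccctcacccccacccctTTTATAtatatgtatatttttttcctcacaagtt
Reln: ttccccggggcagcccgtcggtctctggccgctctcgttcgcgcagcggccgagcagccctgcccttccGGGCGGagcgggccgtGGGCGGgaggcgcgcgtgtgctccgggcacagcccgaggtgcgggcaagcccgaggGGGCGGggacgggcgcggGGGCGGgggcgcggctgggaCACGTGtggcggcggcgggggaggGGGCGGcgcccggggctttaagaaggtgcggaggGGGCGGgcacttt
The GC box (GGGCGG), bound by SP factors, occurred 2 times in the Prox1 stretch and 6 times in the Reln stretch, and 32.7% of 32851 annotated stretches of the same length held at least 1. The TATA motif (TATAAA) occurred 1 time in the Prox1 stretch, on the opposite strand, and was held by 12.4% of all stretches. The E-box (CACGTG) occurred 1 time in the Reln stretch and was held by 6.02% of all. The other motifs were AACAAT, a core of the family of Sox18, which activates Prox1 in the embryo, held by 9.42% of all stretches, and the nuclear receptor core AGGTCA, read by the family of the Prox1 partner Nr2f2, held by 14.0%. Neither occurred in the Prox1 or Reln stretch, and no motifs overlapped. The G and C content was 64.8% for Prox1 and 80.0% for Reln, against a median of 52.4% over all stretches. Of the 6 such stretches annotated for 5 of the genes (Prox1 has 2, and Lyve1 was not matched), 5 held a GC box, and the nuclear receptor core occurred in that of Pdpn. These matches describe letters in a window and do not show binding.

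**Figure D1:**
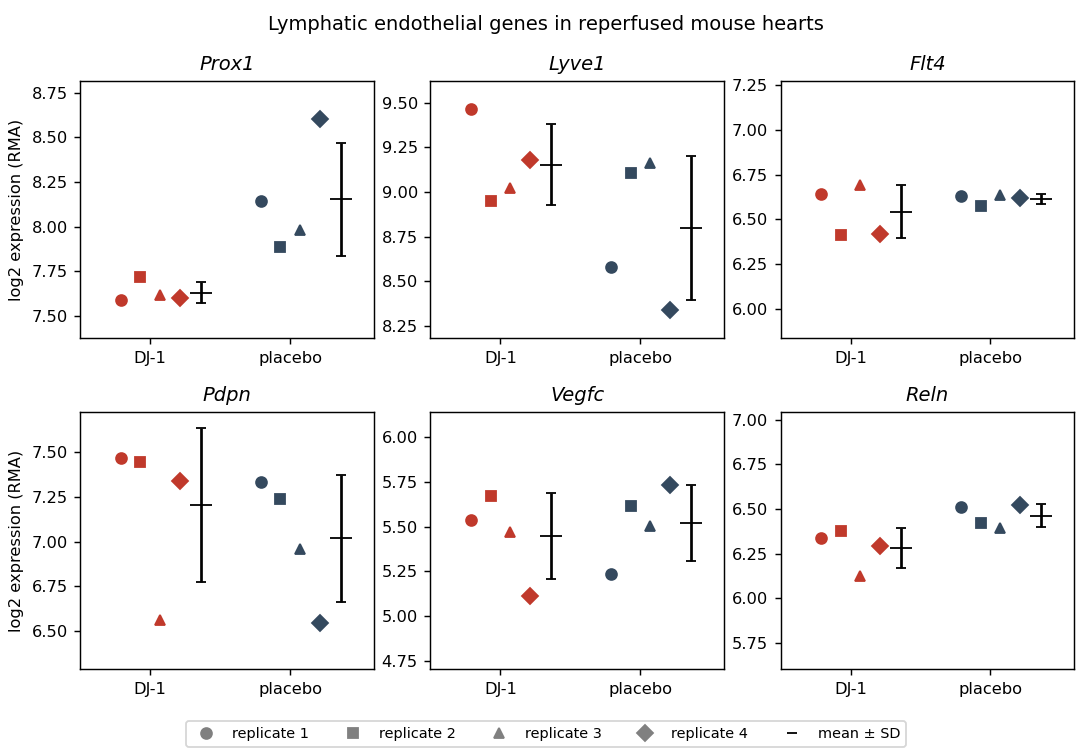
Log2 expression (RMA, vertical axes, all spanning the same log2 range) of 6 lymphatic genes in 4 DJ-1 hearts (red, left) and 4 placebo hearts (dark blue, right). Symbols give the replicate number, and black bars the mean ± SD. The DJ-1 points lie below all placebo points for Prox1 and, by 0.02, for Reln, and the groups overlap for Lyve1, Flt4, Pdpn and Vegfc.

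Flt4, the VEGF-C receptor, had levels of 6.64, 6.41, 6.69 and 6.42 in DJ-1 replicates 1 to 4, against 6.63, 6.57, 6.63 and 6.62 in placebo replicates 1 to 4. The placebo hearts were nearly equal and lay inside the range of the DJ-1 hearts. The difference was -0.07 (SE 0.10), with means of 6.54 ± 0.15 in DJ-1 hearts and 6.61 ± 0.03 in placebo hearts (SD, n = 4 each). Its ligand Vegfc had levels of 5.53, 5.67, 5.47 and 5.11 in DJ-1 replicates 1 to 4, against 5.23, 5.62, 5.50 and 5.73 in placebo replicates 1 to 4. The groups overlapped over most of their range, and the lowest values were DJ-1 replicate 4 and placebo replicate 1. The difference of -0.08 (SE 0.14) turned to 0.04 when DJ-1 replicate 4 was left out and to 0.08 when DJ-1 replicates 3 and 4 both were, so its sign rested on single hearts. Neither the ligand nor the receptor differed between the groups by more than the spread between hearts.

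Lyve1 encodes a hyaluronan receptor on the surface of lymphatic endothelium and of resident macrophages. Its levels were 9.46, 8.95, 9.02 and 9.18 in DJ-1 replicates 1 to 4, against 8.58, 9.10, 9.16 and 8.34 in placebo replicates 1 to 4. Placebo replicates 2 and 3 lay within the DJ-1 range, and placebo replicates 1 and 4 lay below all DJ-1 hearts. The means were 9.15 ± 0.23 in DJ-1 hearts and 8.80 ± 0.40 in placebo hearts (SD, n = 4 each), a difference of 0.36 (SE 0.19) that also helped to choose the gene and carries no test. Without placebo replicate 4 the difference was 0.20. Against placebo, the mean of Lyve1 was thus higher and that of Prox1 lower in DJ-1 hearts, although both genes mark lymphatic endothelium.

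Pdpn encodes podoplanin, a membrane glycoprotein that activates the platelet receptor CLEC-2 and keeps blood and lymph vessels apart. Its levels were 7.47, 7.44, 6.56 and 7.34 in DJ-1 replicates 1 to 4, against 7.34, 7.24, 6.96 and 6.54 in placebo replicates 1 to 4. In each group 1 heart was far lower than the highest, DJ-1 replicate 3 and placebo replicate 4, and the groups overlapped over nearly their whole range. The difference was 0.18 (SE 0.22), with means of 7.20 ± 0.43 in DJ-1 hearts and 7.02 ± 0.36 in placebo hearts (SD, n = 4 each). It was 0.03 without placebo replicate 4 and 0.40 without DJ-1 replicate 3.

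The 6 genes were set beside a wider panel of 36 lymphatic genes, 34 of which were measured under a single symbol. Ccl21a, a chemokine of lymphatic endothelium, was covered by 4 probe sets that each name several genes and is not reported. Of the 28 measured panel genes other than these 6, none passed (0 of 28 in limma with Benjamini-Hochberg adjustment over all 19938 genes), and over all genes 0% were called. Among these 28, 22 had lower and 6 had higher means in DJ-1 than in placebo hearts, and the median difference was -0.11. Over all genes the median difference was 0.01 and 47.5% had a lower mean. At an unadjusted p under 0.05, 2 of these 28 were lower (Maf and Kdr) and 1 higher (Clca3a1), where 2.36% of all genes were lower and 3.63% higher.

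Among the transcription factors, 6 of 8 genes other than Prox1 averaged lower in DJ-1 hearts, and the median difference was -0.07. Maf, a leucine zipper factor found in lymphatic endothelium and macrophages, had levels of 7.16, 6.93, 7.07 and 6.99 in DJ-1 replicates 1 to 4, against 7.41, 7.21, 7.30 and 7.32 in placebo replicates 1 to 4. All DJ-1 values lay below all placebo values, with a difference of -0.27 (95% confidence interval -0.48 to -0.07, limma adjusted p = 0.824). Nr2f2, which encodes the nuclear receptor COUP-TFII that acts with Sox18 to switch Prox1 on in the embryo, had a difference of -0.15 (-0.37 to 0.06, limma adjusted p = 0.832). Sox18 itself, taken up here after its values were seen, had -0.07 (-0.40 to 0.26). The other 6 factors, Sox18 included, lay between -0.09 and 0.14.

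Genes of lymphatic growth signalling had lower means in DJ-1 hearts for 12 of the 13 genes besides Flt4 and Vegfc, with a median difference of -0.14. Kdr, which encodes VEGFR-2, the second VEGF-C receptor and the main VEGF receptor of blood endothelium, had levels of 8.52, 8.53, 9.09 and 8.36 in DJ-1 replicates 1 to 4, against 8.85, 9.02, 9.23 and 9.35 in placebo replicates 1 to 4. DJ-1 replicate 3 lay among the placebo hearts and the other DJ-1 hearts below all of them, and the difference was -0.48 (-0.84 to -0.13, limma adjusted p = 0.824). Calcrl, the adrenomedullin receptor needed for lymphatic growth, had -0.18 (-0.37 to 0.002, limma adjusted p = 0.824) with no overlap between the groups. Svep1, a matrix protein required for remodelling of lymphatic vessels, had -0.14 (-0.34 to 0.06, limma adjusted p = 0.832). Of the genes that act directly on VEGF-C signalling, picked out after their values were seen, the other ligand Vegfd had -0.16, the coreceptor Nrp2 -0.15, the protease Adamts3, which cuts VEGF-C into its active form, -0.17, and its cofactor Ccbe1 -0.10, and none of them passed. The 10 genes of this list not named by rule lay between -0.17 and 0.12.

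The surface and secreted genes had no common direction, with 4 lower and 3 higher means among the 7 measured besides Lyve1, Pdpn and Reln. Mmrn1, a secreted protein stored in platelets and lymphatic endothelium, had levels of 6.18, 6.02, 5.39 and 5.64 in DJ-1 replicates 1 to 4, against 6.25, 6.24, 5.94 and 6.12 in placebo replicates 1 to 4. The lowest 2 values were DJ-1 replicates 3 and 4, and the difference was -0.33 (-0.68 to 0.02, limma adjusted p = 0.824). Clca3a1, a chloride channel accessory protein found on lymphatic vessels in mice, had 0.28 (0.04 to 0.51, limma adjusted p = 0.824), at means of 4.46 in DJ-1 hearts and 4.18 in placebo hearts, which lie below the olfactory guide level. The other 5 genes lay between -0.17 and 0.11.

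**Figure D2:**
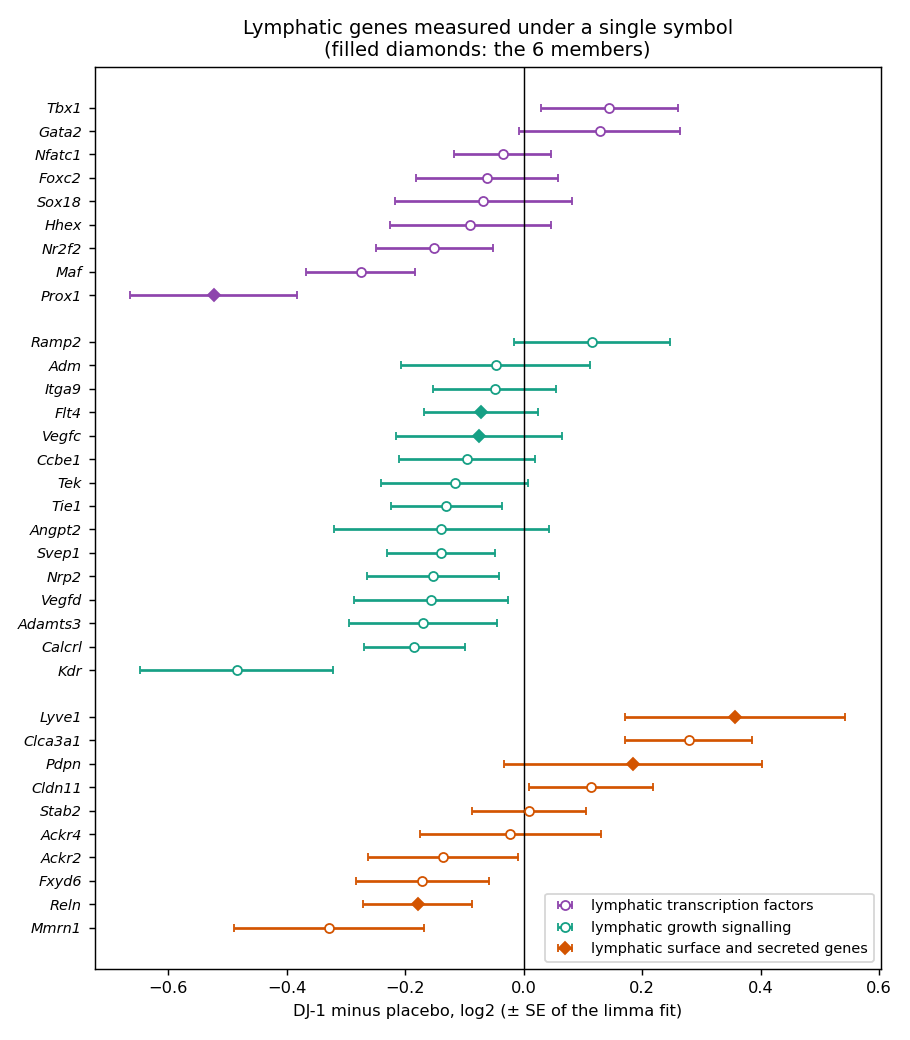
Difference between DJ-1 and placebo hearts (DJ-1 minus placebo, log2, horizontal axis) for the 34 lymphatic genes measured, grouped by role from transcription factors at the top to surface and secreted genes at the bottom. Bars are ± SE of the limma fit, and filled diamonds are the 6 members. Of the 34 differences 26 lie left of 0, with Prox1 at -0.52 and Kdr at -0.48 farthest left and Lyve1 at 0.36 farthest right.

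Of the binding partners of podoplanin and reelin, 0 of 7 passed in limma, with 0 also at an unadjusted p under 0.05, and their differences ran from -0.14 to 0.31. Cd44, which binds podoplanin and, like Lyve1, hyaluronan, had 0.31 (-0.18 to 0.80). The reelin receptors Vldlr and Lrp8 had -0.14 and 0.14, and their intracellular adaptor Dab1 had 0.08. Clec1b, which encodes CLEC-2, had 0.10, and Ezr and Msn, which tie podoplanin to the cell cortex, had -0.11 and 0.02. Clec1b and Dab1 lay below the olfactory guide level.

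Variation between hearts of the same group is independent of the group difference that chose the genes, so the 6 genes were compared with one another after each was centred on its group mean. Prox1 and Lyve1 ran in opposite directions over the 8 hearts, with Pearson r = -0.84 (exact permutation within groups, p = 0.00694) and Spearman rho = -0.90 (exact permutation p = 0.0330). Placebo replicate 4 had the highest Prox1 of its group, 0.45 above the group mean, and the lowest Lyve1, 0.46 below it. Placebo replicates 2 and 3 had low Prox1 (-0.27 and -0.17) and high Lyve1 (0.31 and 0.37). Among DJ-1 hearts, whose Prox1 values spanned only 0.13, replicate 1 had the lowest Prox1 with the highest Lyve1, and replicate 2 the highest Prox1 with the lowest Lyve1. Without placebo replicates 2 and 4, the hearts farthest from the median of Prox1, r was -0.80. After adjustment over the 15 pairs of genes the relation did not pass (adjusted p = 0.104 for r and 0.495 for rho), and no other pair had an unadjusted exact p under 0.05. Flt4, which adult vessels carry mainly on lymphatic endothelium, had r = -0.03 with Prox1 and 0.11 with Lyve1. The highest r of any pair was 0.57, between Pdpn and Reln.

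**Figure D3:**
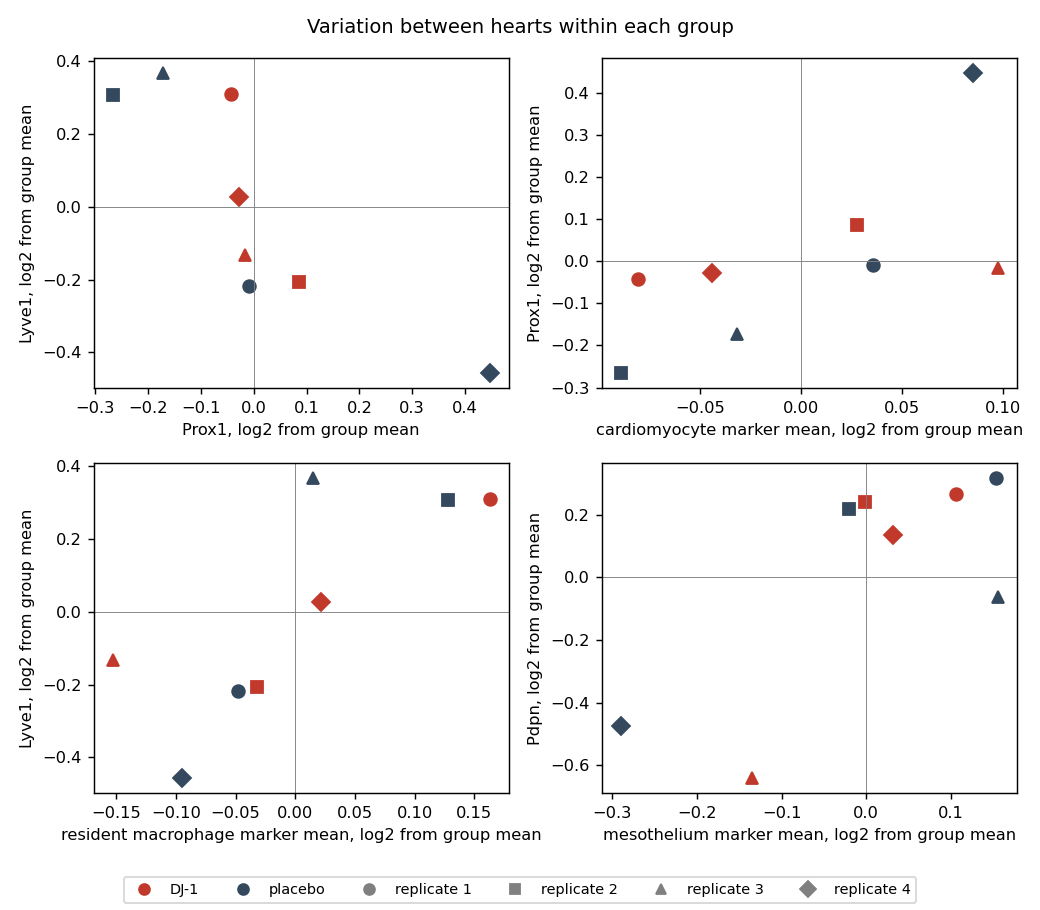
Deviations from the group mean (log2, all axes) in 4 DJ-1 hearts (red) and 4 placebo hearts (dark blue), with symbols for replicate numbers, of Lyve1 against Prox1, Prox1 against the mean of cardiomyocyte markers, Lyve1 against the mean of resident macrophage markers, and Pdpn against the mean of mesothelium markers. Lyve1 falls from left to right against Prox1 (r = -0.84), while the other 3 panels climb (r = 0.68, 0.78 and 0.75), the Pdpn panel through 2 low hearts.

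Since Prox1, Lyve1 and Pdpn are also transcribed by other cells of the tissue, each gene was set against the mean of 9 lists of cell type markers, centred in the same way. Prox1 went with cardiomyocyte markers (r = 0.68, exact permutation p = 0.0417; rho = 0.76, exact permutation p = 0.0503; r = 0.69 without DJ-1 replicate 3 and placebo replicate 4). Its r was of like or larger size and negative with adipocyte markers (r = -0.74, exact permutation p = 0.257) and mesothelium markers (r = -0.69, exact permutation p = 0.205), both near 0 without the 2 hearts farthest from the median of the list (-0.09 and 0.05). It was also negative with fibroblast markers (r = -0.59, rho = -0.71) and resident macrophage markers (r = -0.55, rho = -0.71). With neutrophil markers Prox1 had r = -0.60 (rho = -0.43), which was 0.48 without the 2 farthest hearts. With blood endothelium markers it had r = -0.25 (rho = -0.62), which was -0.91 without the 2 farthest hearts. Lyve1 went with the mean of the 12 resident macrophage markers, with r = 0.78 (exact permutation p = 0.0226) and rho = 0.71 (exact permutation p = 0.0521). Without DJ-1 replicates 1 and 3 that r was 0.85. Lyve1 went against cardiomyocyte markers, with r = -0.86 (exact permutation p = 0.0156) and rho = -0.69 (exact permutation p = 0.0972). Without DJ-1 replicate 3 and placebo replicate 4 that r was -0.86. Single markers of these lists were not set against Lyve1. The relation with macrophage markers was r = 0.48 without centring within groups (exact permutation p = 0.175). Lyve1 went as closely with fibroblast markers, with r = 0.79 (exact permutation p = 0.106), the highest r of the 54 relations. For that list rho was 0.74 (exact permutation p = 0.122), and r was 0.73 without the 2 farthest hearts. With blood endothelium markers Lyve1 had r = 0.49 (exact permutation p = 0.286) and rho = 0.74 (exact permutation p = 0.0938). That r was 0.98 without the 2 farthest hearts. Mesothelium and adipocyte markers had r = 0.62 and 0.60 with Lyve1 (rho = 0.52 and 0.62), and neutrophil markers 0.45 (rho = 0.33). Without the 2 farthest hearts of each list these r were 0.09, 0.17 and -0.17. Pdpn went with mesothelium markers (r = 0.75, exact permutation p = 0.0312; rho = 0.55, exact permutation p = 0.212), but r was -0.24 without placebo replicate 4 and DJ-1 replicate 3, so that relation rested on those hearts. Its r was of like size with resident macrophage markers (r = 0.71, rho = 0.50), cardiomyocyte markers (r = -0.71, rho = -0.45) and neutrophil markers (r = 0.63, rho = 0.64). Without the 2 farthest hearts of each list these r were 0.47, 0.19 and 0.47. Over the 54 relations of genes with lists none passed (smallest adjusted p = 0.406), and 5 had an unadjusted exact p under 0.05. With 576 arrangements of the arrays, a single relation could not go below an adjusted p of 0.0938. Flt4 and Reln had no relation with r beyond 0.40 in size.

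**Figure D4:**
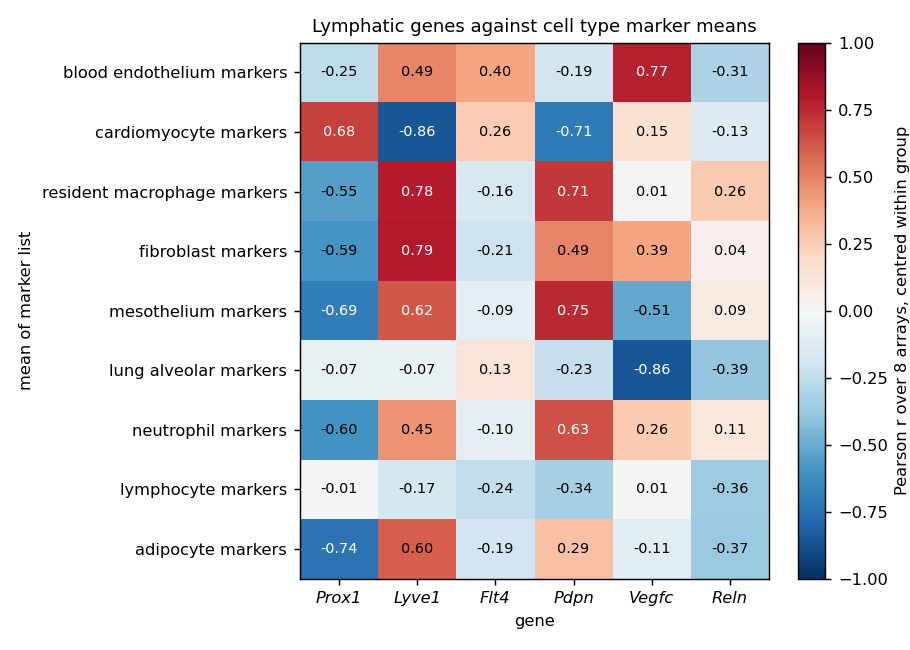
Pearson r over 8 hearts, centred within group, between each of 6 lymphatic genes (columns) and the mean of 9 cell type marker lists (rows), from -1 in blue to 1 in red. Lyve1 is negative with cardiomyocyte markers (-0.86) and positive with resident macrophage markers (0.78), Prox1 is positive with cardiomyocyte markers (0.68), and the Flt4 and Reln columns are pale.

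The marker lists themselves were compared between the groups for the differences of Prox1 and Lyve1, and 0 of their genes passed (smallest limma adjusted p = 0.824). Cardiomyocyte markers had a median difference of -0.03, with 10 of 12 genes lower, and list means from -0.12 to 0.06 in DJ-1 hearts and -0.05 to 0.13 in placebo hearts. Resident macrophage markers had a median of -0.06, with 9 of 12 lower, and list means from -0.18 to 0.13 in DJ-1 hearts and -0.06 to 0.16 in placebo hearts, so the list and Lyve1 had mean differences of opposite sign. Blood endothelium markers had a median of 0.02 with 6 of 13 lower. Of these, 2 genes picked out after their values were seen had no overlap between the groups: the apelin receptor gene Aplnr with -0.63 (-0.96 to -0.31) and Myct1 with -0.49 (-0.72 to -0.25), neither of which passed (limma adjusted p = 0.824 for each). Stab1 of the macrophage list (-0.18) and Gsn of the fibroblast list (-0.21) also had no overlap, and the other marker genes overlapped. Over all genes, 1.68% had no overlap with DJ-1 lower and 1.54% with DJ-1 higher. Fibroblast markers had a median of -0.10 with 9 of 10 lower, mesothelium markers 0.12 with 1 of 9 lower, and lung alveolar markers 0.11 with 3 of 8 lower. Lymphocyte markers had -0.06 with 4 of 7 lower, and adipocyte markers 0.06 with 3 of 6 lower. Neutrophil markers had a median of 0.77 with 10 of 10 higher, and list means from -0.49 to 1.13 in DJ-1 hearts and -1.53 to 0.84 in placebo hearts, the lowest in placebo replicate 4, the heart of highest Prox1 and lowest Lyve1. The part of these cell types in the differences of the 6 genes was not tested.

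The genes whose variation between hearts was most like that of Prox1 were sought among 9671 genes above the median level. They were Marchf8 (a ubiquitin ligase), Kcnn2 (a calcium-activated potassium channel), Fnbp1 (a membrane-bending protein), Zfp395 (a zinc finger factor) and Tcp11l2, with r from 0.96 to 0.98 over 8 hearts centred within group. Without the 2 hearts farthest from the Prox1 median their r was between 0.77 and 0.89. Their differences between DJ-1 and placebo hearts lay between -0.21 and 0.03, with overlapping groups, where that of Prox1 was -0.52. For Lyve1 they were Rab5c (an early endosome GTPase), Mea1, Tspan14 (a tetraspanin), Snhg17 (a small nucleolar RNA host gene) and Rpl7a (a ribosomal protein), with r from 0.96 to 0.98 and differences from -0.02 to 0.12. These values are the highest of many and carry no test.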

How the data were processed

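Myocardial RNA of 4 DJ-1 and 4 placebo mice was measured, 1 array per mouse, with groups and replicate numbers taken from the sample titles. Nothing in the labels beyond the numbering says that samples were processed separately, so p-values measure the spread between these samples. The deposited log2 values of 35556 probe sets were made by the authors with RMA, per the submitters' processing notes; no version of it, software or build is named there. RMA pulls arrays to a common distribution, so a change shared by most genes would not show. Arrays correlated at 0.978 to 0.987 and 0 pairs were identical.

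Probe sets with 1 gene symbol in the platform annotation (21789) were used, 1621 with several and 12146 with none were not, and the probe set of highest mean was taken for each of 19938 genes. DJ-1 minus placebo was fitted with limma 3.58.1 in R 4.3.3 (lmFit and eBayes, two-sided, no covariate), with Benjamini-Hochberg adjustment over all genes and 95% confidence intervals from the fit. The number of arrays limits precision: the median SE was 0.117. Relations between genes were tested by exact permutation of arrays within groups (two-sided, 576 arrangements). The limma fit and the permutation were tested on simulated data. The 6 genes and the 13 lists (132 entries, 128 measured) were chosen with earlier results of these data known. Named by rule were the 6 genes, the 3 genes of smallest p in each lymphatic list (all genes in a list of under 8), and the 5 genes most like Prox1 and Lyve1, leaving out predicted, olfactory, vomeronasal and small RNA genes. Alternatives covered normalization, probe set choice, low levels, the variance model, left-out arrays and the replicate number as a block.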

Additional observations from a re-analysis of the deposited data

Results flagged for a closer look

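Pdpn in DJ-1 replicate 3 was 6.56, while the other 3 DJ-1 hearts lay between 7.34 and 7.47. The gap to the nearest of them, 0.78, took up 0.857 of the range of the group. This was 1 of 78 groups of 4 hearts examined over the named genes and marker lists, and chance alone marks about 1 group in 20. The same heart had the lowest mesothelium marker mean of the DJ-1 group, at -0.09 against 0.05 to 0.15 in the others. The part of mesothelial tissue in this value was not tested.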

How the results depend on the processing

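The differences of all 6 genes moved by less than 1 SD of the replicates under each of 14 alternatives, but most of these could not have moved them further. Leaving out 1 of 4 arrays shifts a difference by less than 1 SD whatever the values. Averaging probe sets and the replicate block cannot change these differences. With all arrays kept, Prox1 ran from -0.57 to -0.48 and Lyve1 from 0.31 to 0.39. With single arrays left out the differences ran from -0.61 to -0.37 for Prox1, 0.20 to 0.48 for Lyve1, -0.12 to -0.03 for Flt4, 0.03 to 0.40 for Pdpn, -0.17 to 0.04 for Vegfc and -0.21 to -0.13 for Reln. Without DJ-1 replicates 3 and 4, a setting chosen after seeing the data that keeps placebo replicates 3 and 4, Pdpn was 0.44 and Reln -0.10. The median of the 28 other lymphatic genes was -0.15 with each array centred on its median, which moved the median of all genes to -0.03, and -0.058 without DJ-1 replicates 3 and 4. The median of the transcription factors, Prox1 included, ran from -0.17 (without placebo replicate 1) to -0.036 with single arrays left out. The count of genes called by limma was 0 to 1 with single arrays left out, the 1 being Pramel27 without DJ-1 replicate 3 (limma adjusted p = 0.0440), and 0 otherwise. At an unadjusted p under 0.05 there were 1065 to 1302 of 19938 genes under the settings that keep all arrays and all genes, 781 of 13693 genes above the olfactory guide level, and 1890 of 35556 probe sets. The relation of Prox1 with Lyve1 ran from r = -0.90 to -0.80, with exact permutation adjusted p from 0.104 to 0.820. It passed under none of the 14 alternatives, but not all of these could have let it pass. With a single array left out, the arrangements are too few for 1 pair alone to pass, whatever its values. Averaging probe sets repeats the reported values of this pair. With all arrays kept, exact permutation adjusted p was 0.182 under quantile normalization, 0.208 under cyclic loess and 0.339 with each array centred on its median. Without centring within groups it was 0.104. Whether the replicate numbers pair the hearts is not stated in the labels and was not settled. Over all genes, deviations of same-numbered arrays correlated at 0.005, 0.171, 0.177 and 0.008, and those of differently numbered arrays at -0.285 to 0.287. The neutrophil marker mean, picked out after its values were seen, had the same order of replicates in both groups. Its deviations were 0.48, 0.75, -0.36 and -0.87 in DJ-1 replicates 1 to 4. In placebo replicates 1 to 4 they were 0.21, 1.22, -0.28 and -1.15. With the replicate block 0 genes were called and 1302 had an unadjusted p under 0.05, and the Prox1 and Lyve1 relation was r = -0.82 (exact permutation adjusted p = 0.820).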

Other observations

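Vegfc varied between hearts of a group against the mean of lung alveolar markers (r = -0.86, exact permutation p = 0.00868; rho = -0.90, exact permutation p = 0.0104; r = -0.70 without DJ-1 replicates 2 and 4), which did not pass over the 54 relations (adjusted p = 0.406). The list means were -0.18 in DJ-1 replicate 2, where Vegfc was highest in its group, and 0.19 in DJ-1 replicate 4, where it was lowest. Of the alveolar list 4 of 8 genes lay below the olfactory guide level. Vegfc also went with blood endothelium markers over all 8 hearts (r = 0.77, exact permutation p = 0.0625; rho = 0.26), and r was -0.71 without the 2 hearts farthest from the median of that list.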
